A study of Mus musculus with 48 samples.

Results

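The 10 genes examined here encode the cytokines of the interleukin 1 (IL-1) family that macrophages make, the proteins that hold those cytokines in check, and the inflammasome that processes them. They are Il1a, Il1b, Il1rn, Il1r2, Il18, Il18bp, Nlrp3, Casp1, Casp4 and Gsdmd, taken by symbol from a table of 54735 genes, and all 10 were found and passed the filter on low counts. RNA was sequenced from Kupffer cells (KCs), which are macrophages residing in the sinusoids of the liver, taken from male C57BL/6 mice at 6, 12, 24, 36, 48, 72, 96, 120 and 168 h after acetaminophen (APAP), a drug that kills hepatocytes at high dose. Controls were KCs 0 and 24 h after saline (PBS), and at 36 and 48 h after APAP a second population labelled LAM-like KCs was sequenced as well. There were 48 libraries in 13 groups, 4 per group after APAP and 2 per group after PBS. No genotype other than the strain, no dose and no criterion separating LAM-like KCs from KCs was given in the labels used here. Whether each library came from its own animal is not stated in the labels, and p-values therefore reflect only the spread between these samples, which may be technical.

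IL-1α and IL-1β signal through the same receptor. The product of Il1rn, the IL-1 receptor antagonist, occupies that receptor without signalling, and Il1r2 encodes a decoy receptor that binds IL-1 but cannot transmit. IL-18, which stimulates lymphocytes to make interferon γ, is neutralised by the secreted IL-18 binding protein encoded by Il18bp. IL-1β and IL-18 are made as inactive precursors and are cut by caspase-1, which is activated on inflammasomes such as the one built on the sensor NLRP3. Caspase-11, the product of Casp4 in the mouse, senses cytosolic lipopolysaccharide, and gasdermin D, cut by these caspases, forms the membrane pores of pyroptosis. Transcript levels report none of these cleavage steps.

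Between 15885336 and 26058698 reads were counted per library, and 17080 genes were tested. Values are given as CPM, that is, counts scaled to the total of their library multiplied by its scaling factor (TMM). Markers of KCs were abundant throughout. The summed level of 14 KC markers, among them Clec4f, Vsig4 and Timd4, lay between 30005 and 54801 CPM in the KC libraries and between 22245 and 31732 CPM in the LAM-like libraries. Of 16 neutrophil markers, Ly6g, Stfa2 and Stfa3 had no count in any library and Ngp at most 8. Of the 8 neutrophil markers that could be tested, however, 3 were called higher than PBS at 6 h and 4 at 12 h, and none lower. Of all genes, 15.1% were called either way at 6 h and 20.6% at 12 h. S100a8 averaged 4.08 CPM at 6 h and 6.32 CPM at 12 h, against 0.539 and 0.248 CPM at PBS 0 h and 24 h. The summed level of the 16 ran from 87.4 to 118 CPM at 6 h, from 103 to 182 CPM at 12 h and from 83.0 to 129 CPM in PBS, most of it Csf3r, at 85.5 CPM at 12 h and 76.5 and 75.0 CPM at PBS 0 h and 24 h. Of 13 monocyte markers tested, 3 were called higher and none lower at 6 h (15.1% of all genes were called), and 5 higher and 1 lower at 12 h (20.6%). Their sums were 548 to 992 CPM at 6 h, 343 to 472 CPM at 12 h and 394 to 585 CPM in PBS. The part of these cells in the rises of 6 and 12 h reported here was not tested. In a bulk library a smaller number of cells of a type and less RNA per cell cannot be told apart. Sample numbers in the file headers ran from 1 upward, and libraries numbered up to 25 (set 1, 25 libraries) differed from those numbered higher (set 2, 23 libraries) in the level of several of these genes, so values within sets are given beside the results. At 12 h set 2 holds 1 library, and a value for set 2 at 12 h assumes that this lone library varies like the other groups. PBS 24 h lay wholly in set 1 and PBS 0 h wholly in set 2, and the set and the PBS group cannot be told apart there.

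In the RefSeq annotation of GRCm38.p6, 9 of the 10 genes had an entry, with 13 windows of 250 bases ending at an annotated start. The windows were searched on both strands for TGANTCA, the consensus of AP-1, for the κB consensus bound by NF-κB, and for TTNNGNAA, bound by C/EBP factors. Casp4, Il1rn, Il1a and Il1b are printed because, among genes that rose at 6 or 12 h, they range from 3 κB or AP-1 matches to 0, each read in the direction of transcription with κB and AP-1 matches in capitals. The windows are chr9:5308599-5308848 (plus strand), chr2:24336610-24336859 (plus strand), chr2:129309973-129310222 (minus strand) and chr2:129371140-129371389 (minus strand), respectively.
Casp4: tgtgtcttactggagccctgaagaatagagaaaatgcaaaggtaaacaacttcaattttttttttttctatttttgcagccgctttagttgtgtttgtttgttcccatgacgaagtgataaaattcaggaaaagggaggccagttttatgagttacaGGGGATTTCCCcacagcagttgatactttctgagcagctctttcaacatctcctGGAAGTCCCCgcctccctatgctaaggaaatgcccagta
Il1rn: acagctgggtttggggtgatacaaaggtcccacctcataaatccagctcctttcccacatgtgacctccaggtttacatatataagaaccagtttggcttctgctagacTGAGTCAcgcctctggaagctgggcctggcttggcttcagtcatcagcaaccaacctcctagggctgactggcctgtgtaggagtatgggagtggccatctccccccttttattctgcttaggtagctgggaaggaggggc
Il1a: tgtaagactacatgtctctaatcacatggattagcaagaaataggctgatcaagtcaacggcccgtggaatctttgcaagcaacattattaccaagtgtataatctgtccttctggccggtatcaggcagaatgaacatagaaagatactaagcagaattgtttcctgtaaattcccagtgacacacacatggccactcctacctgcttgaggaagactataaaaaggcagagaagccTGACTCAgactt
Il1b: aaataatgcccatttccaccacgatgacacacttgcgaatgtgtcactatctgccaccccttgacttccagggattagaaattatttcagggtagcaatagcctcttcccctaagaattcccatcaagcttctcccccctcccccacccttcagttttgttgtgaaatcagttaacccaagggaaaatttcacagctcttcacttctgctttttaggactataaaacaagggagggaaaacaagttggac
Casp4 held 3 κB matches, the first pair overlapping each other from 93 to 83 bases upstream and the third, on the minus strand, beginning 39 bases upstream. Il1rn held 1 AP-1 match 141 bases upstream, in the first of its 3 windows, and Il1a held 1 AP-1 match 12 bases upstream. The window of Il1b held neither, but 1 C/EBP match 91 bases upstream. Another κB match lay in 1 of the windows of Nlrp3, while the windows of Il1r2, Il18, Il18bp and Casp1 held no κB or AP-1 match. For that window of Nlrp3 and for the window of Il18, the first transcribed bases were not found in a GENCODE transcript of the gene. Of 32851 such windows in the table, 7.25% held a κB match, 6.75% an AP-1 match and 36.8% a C/EBP match. The C/EBP letters were also in windows of Il1rn, Il1a, Il18bp, Casp4 and Nlrp3, and not in those of Il1r2, Casp1 and Il18. These are matches of letters, and nothing in the data measured binding.

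**Figure D1:**
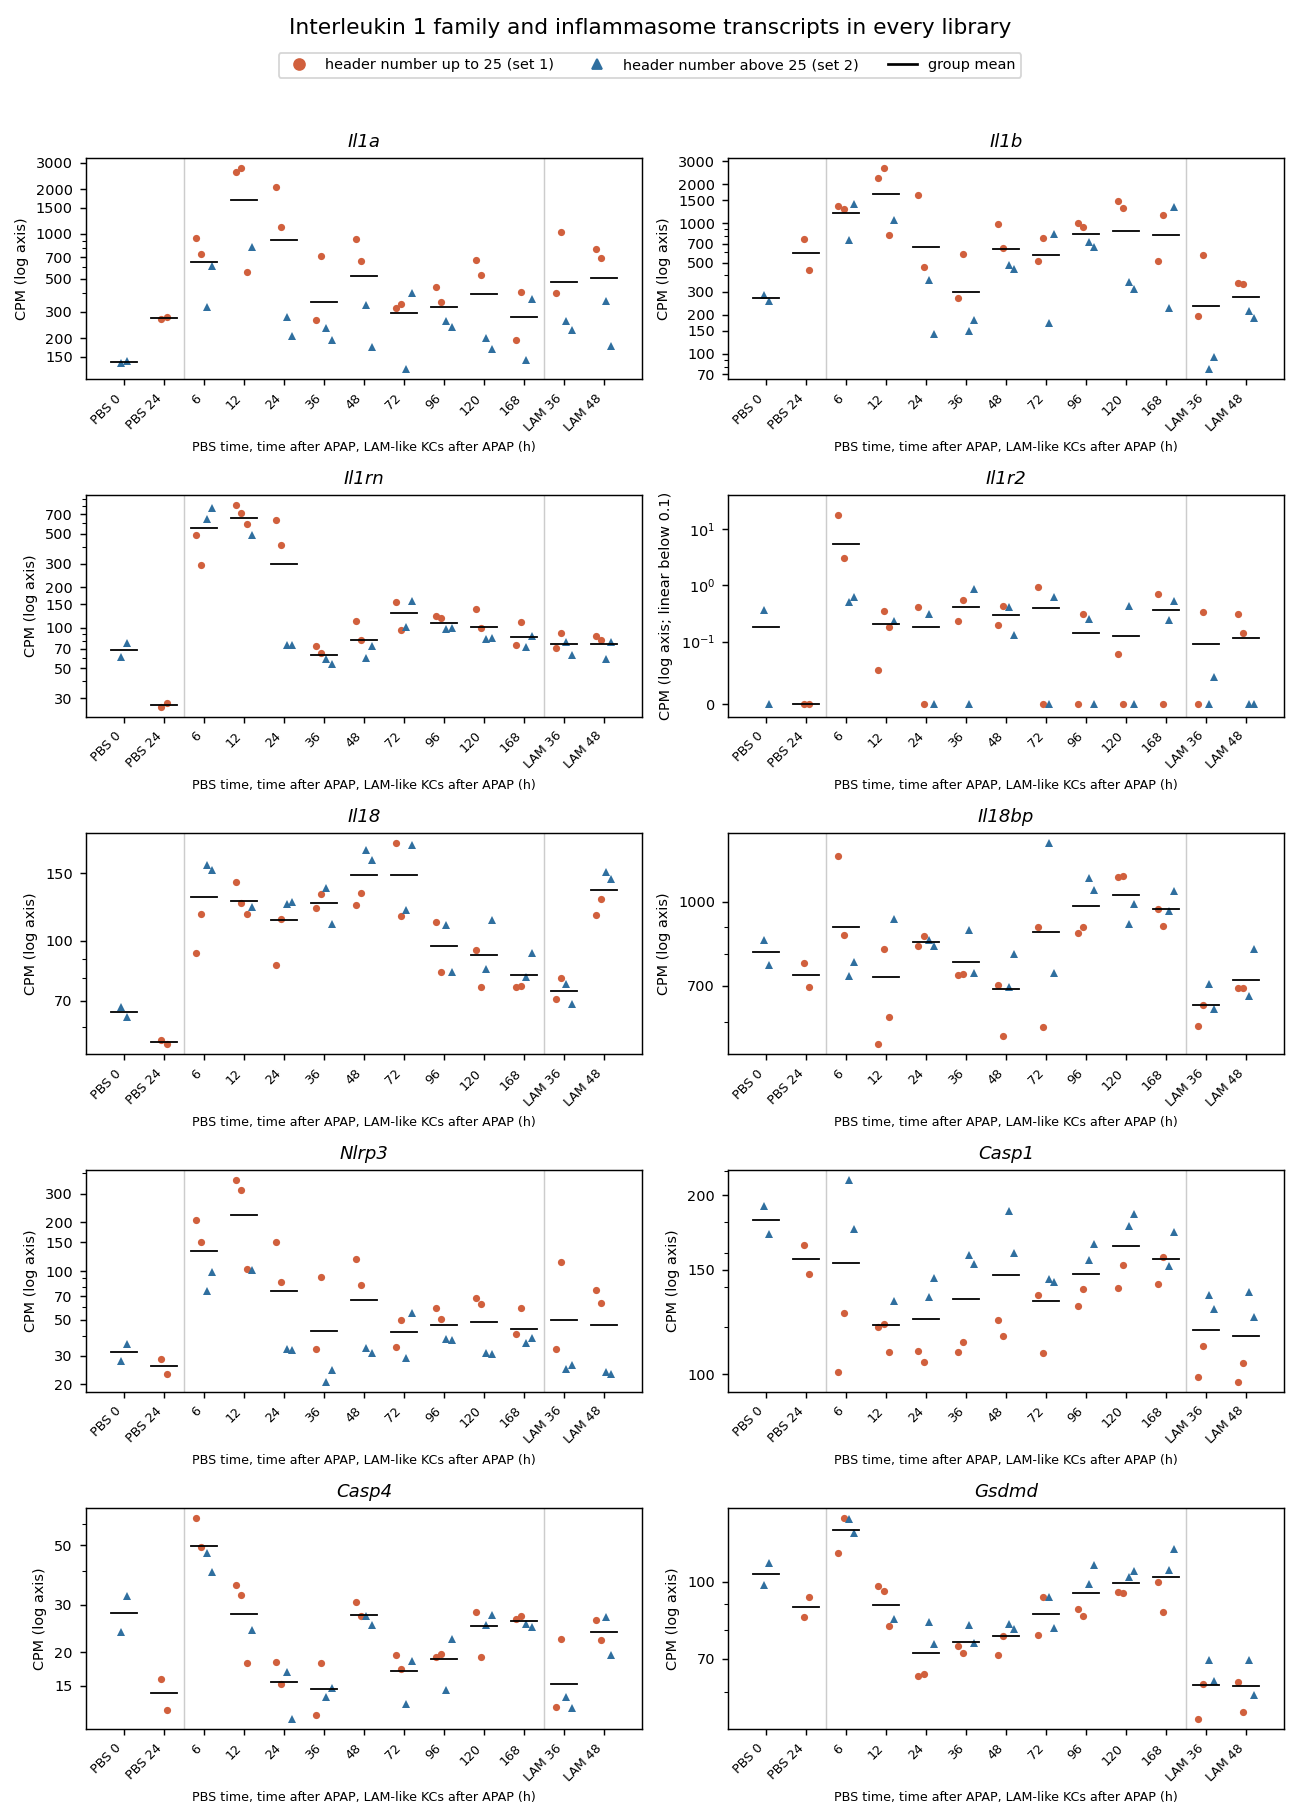
Level of each of the 10 genes in every library, in CPM on log axes (linear below 0.1 CPM for Il1r2), with PBS, KC and LAM-like groups from left to right, libraries coloured by header set and black bars at group means. Il1rn, Il1a, Il1b and Nlrp3 had their highest means at 12 h, Il18 stayed above PBS at every time, and Il1r2 stood above 1 CPM in replicates 1 and 2 of 6 h and in no other library.

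Il1a (chromosome 2, 129299610 to 129309972, minus strand, mm10) encodes IL-1α, which is active without cleavage and is released by damaged cells. It stood at 136 and 140.2 CPM at PBS 0 h and at 267 and 278 CPM at PBS 24 h. At 12 h after APAP, replicates 1 to 4 gave 2600.0, 2782, 557 and 813 CPM. All 4 libraries lay above all PBS libraries, but replicates 1 and 2 were far above the others. The rise was 3.12 ± 0.69 (log2 fold change ± SE, adjusted p = 0.00113, edgeR), and it was 2.82 in the 3 libraries of set 1 and 2.56 in the 1 library of set 2, each against the PBS group of its own set. At 24 h, replicates 1 and 2 gave 2076 and 1108 CPM, while replicates 3 and 4, with 277 and 205 CPM, fell among the PBS libraries. The rise at 24 h was 2.24 ± 0.67 (adjusted p = 0.0111), with 2.51 in set 1 (adjusted p = 0.00794) against 0.80 in set 2 (adjusted p = 0.420). Without replicate 1 it was 1.45 (adjusted p = 0.116). At 6 h the 4 libraries, from 323 to 934 CPM, also all lay above PBS, at 1.75 ± 0.66 (adjusted p = 0.0670). From 36 to 168 h the group means lay between 279 and 523 CPM and every group overlapped PBS.

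Il1b (chromosome 2, 129364570 to 129371139, minus strand) encodes the precursor of IL-1β. It was already abundant in controls, at 281 and 252 CPM at PBS 0 h and 757 and 440.2 CPM at PBS 24 h. At 12 h the libraries gave 2209, 2667, 814 and 1069.7 CPM, all above PBS. The rise was 2.08 ± 0.66 (adjusted p = 0.0212, edgeR), a call that was lost when any of 6 of the 8 libraries involved was left out (adjusted p up to 0.107). It was also lost against PBS 24 h alone, where the difference was 1.50 (adjusted p = 0.258). The difference was 1.62 in set 1 (adjusted p = 0.0723) and 2.005 in the 1 library of set 2 (adjusted p = 0.237). At 6 h Il1b stood at 1366, 1278, 742 and 1399 CPM, 1.58 ± 0.65 above PBS (adjusted p = 0.0954), with the lowest library just under the highest PBS library. Its lowest mean in KCs after APAP was that of 36 h, 298 ± 199.7 CPM (SD, n = 4). At 96, 120 and 168 h the means were back at 830.3, 869 and 811 CPM, but the libraries of 120 h and 168 h ranged from 225 to 1483 CPM and overlapped PBS. Across the 9 APAP times, Il1b missed the threshold (adjusted p = 0.0653).

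Il1rn (chromosome 2, 24336853 to 24351494, plus strand), the gene of the receptor antagonist, was far above PBS at both 6 and 12 h. PBS libraries held 61.1 and 76.6 CPM at 0 h and 25.96 and 27.4 CPM at 24 h. At 6 h the 4 libraries held 485, 294, 639 and 776 CPM, and at 12 h 814, 718, 595 and 489 CPM. No library of these times came near the PBS range, in either set. The rises were 3.68 ± 0.42 (adjusted p = 2.78e-07) and 3.93 ± 0.43 (adjusted p = 3.93e-08, edgeR), and both calls held in every alternative tried. At 24 h the sets parted, with 637 and 416 CPM in replicates 1 and 2 and 74.0 CPM in each of replicates 3 and 4. The pooled rise of 2.81 ± 0.41 (adjusted p = 2.75e-06) was 4.26 within set 1 (adjusted p = 3.33e-07) and 0.10 within set 2 (adjusted p = 0.800). Il1rn then fell by 2.26 on the log2 scale between 24 and 36 h (SE 0.40, adjusted p = 0.000322), to 62.8 ± 8.62 CPM (SD, n = 4). A later rise was called at 72 h, with libraries at 156, 97.1, 101 and 159 CPM, all above PBS, and a difference of 1.58 ± 0.39 (adjusted p = 0.0261). Against PBS 0 h alone that difference was 0.90 (adjusted p = 0.480). PBS 24 h compared with PBS 0 h gave -1.37 ± 0.55 (adjusted p = 0.664). Within set 1, whose only control is PBS 24 h, Il1rn was called higher at every time from 36 to 168 h, between 1.38 and 2.21. Within set 2, whose control is PBS 0 h, it was called at 72 h (0.92, adjusted p = 0.0433) and at none of the other times from 24 h on.

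Il1r2 (chromosome 1, 40074079 to 40125231, plus strand), the decoy receptor, was close to 0 in most libraries. At 6 h it held 266, 64, 11 and 12 counts in replicates 1 to 4, or 17.6, 3.07, 0.504 and 0.631 CPM. The PBS libraries held 7 and 0 counts at 0 h and none at 24 h. Outside the 6 h group no library exceeded 21 counts, and 17 libraries had none. Replicates 3 and 4 of 6 h lay within the range of other times, which reached 0.929 CPM. Il1r2 was called higher at 6 h than in PBS (adjusted p = 0.00537, edgeR). The 6 h mean of 5.45 CPM compared with 0.179 CPM at PBS 0 h, and the ratio to the mean of all PBS libraries was 5.93 on the log2 scale. PBS 24 h was at 0, and a floor of 3 counts over both of its libraries puts the 6 h mean at least 70.8-fold higher than that group. That floor was set on library totals without the TMM factor, whereas the 6 h mean includes it. Replicate 1 alone held 75.4% of the 6 h counts. Without it the bound was at least 18.2-fold and the call was lost (adjusted p = 0.0592), and set 2 alone gave no call (adjusted p = 0.713). The same library had the highest summed level of 14 monocyte markers in its group, 992 CPM, where the group ran from 548 to 992 CPM and PBS from 394 to 585 CPM, and the part of monocytes in the Il1r2 counts was not tested. Among the 14, Ly6c2 and Ccr2 averaged 0.126 and 2.32 CPM over the libraries of 6 h, so the sum came almost wholly from the other markers. Their levels in replicate 1 alone are not given here.

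**Figure D2:**
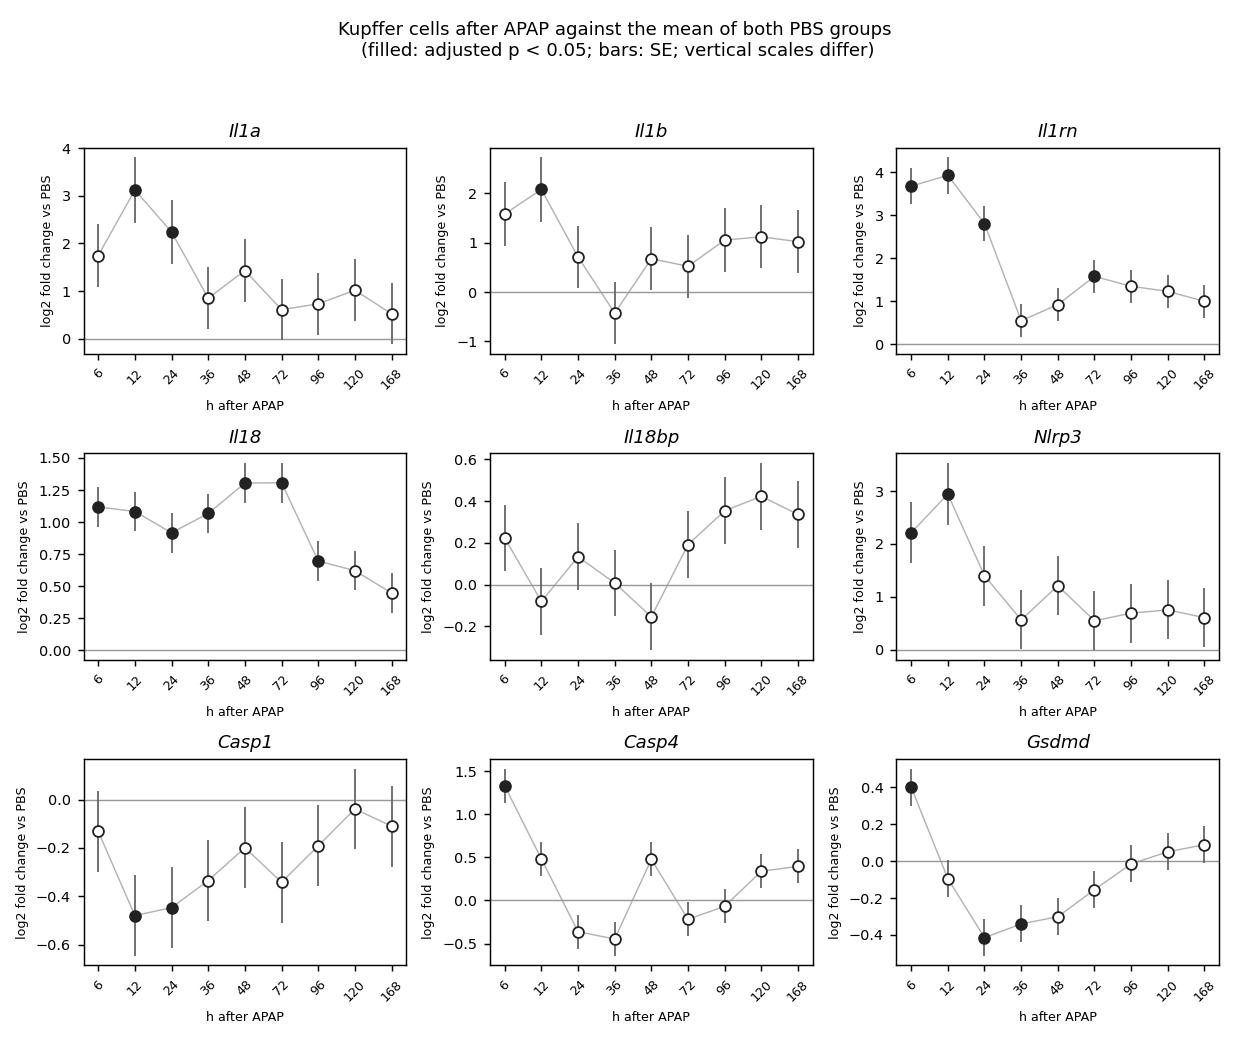
Log2 fold change of 9 genes in KCs at each time after APAP against the mean of both PBS groups, with SE bars and filled points where the adjusted p (edgeR) passed the threshold (Il1r2, at 0 in PBS 24 h, is left out). Il1rn peaked at 3.93 at 12 h, Il18 stayed between 0.45 and 1.31 throughout, and Gsdmd moved from 0.40 at 6 h to -0.41 at 24 h.

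Il18 (chromosome 9, 50554827 to 50581840, plus strand) was called at 7 of the 9 times, from 6 to 96 h. Its PBS libraries were tight, at 67.5 and 63.6 CPM at 0 h and 55.3 and 54.1 CPM at 24 h, and all 36 APAP libraries of KCs lay above all 4 of them. At 6 h it stood at 92.8, 117, 157 and 152 CPM, a rise of 1.12 ± 0.15 (adjusted p = 3.77e-06, edgeR). The highest means came at 48 and 72 h, 148 ± 23.1 and 148 ± 34.8 CPM (SD, n = 4), with rises of 1.30 ± 0.15 (adjusted p = 3.43e-06) and 1.31 ± 0.15 (adjusted p = 3.18e-06). Il18 was the only member called at 36 h as higher, at 1.07 ± 0.15 (adjusted p = 1.28e-06), and the only one called at all at 48 h. The call at 96 h, 0.70 ± 0.15 (adjusted p = 0.0397), was lost without any of 6 of its 8 libraries (adjusted p up to 0.255). At 120 and 168 h, when the libraries still stood at 76.0 to 113 CPM, the differences of 0.62 and 0.45 missed the threshold (adjusted p = 0.101 and 0.801). In set 1 alone and set 2 alone the rises at 6, 12, 24, 36, 48 and 72 h were each called, between 0.84 and 1.40, that of set 2 at 12 h from 1 library. One library of 72 h, replicate 2, had a summed level of hepatocyte markers of 24900 CPM against 1598 to 7272 CPM in the others, and Il18 stood there at 116 CPM, the lowest of its group.

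Il18bp (chromosome 7, 102014885 to 102018690, minus strand) was abundant and nearly flat. Its PBS libraries held 849, 766, 771 and 695 CPM, and the group means of KCs after APAP ran from 691 to 1031 CPM. No time was called, the largest difference being that of 120 h at 0.42 ± 0.16 (adjusted p = 0.430), although its libraries at 96, 120 and 168 h all lay above all PBS libraries. Across the 9 APAP times it was called (adjusted p = 0.0166, edgeR). As Il18 rose and Il18bp did not, the number of Il18bp reads per Il18 read was lower after APAP. It lay between 12.0 and 13.9 in the PBS libraries, between 3.84 and 7.59 at 12 h and between 4.04 and 5.67 at 48 h. The ranges did not overlap those of PBS at 12, 24, 36, 48 and 72 h, and by 168 h the ratio was 11.3 to 12.8. The same ratio of antagonist to agonist for IL-1, Il1rn reads per Il1b read, ran from 0.230 to 0.861 at 6 h and from 0.0343 to 0.303 in PBS. Those ranges overlapped, and the ratio differed between PBS 24 h (0.0343 and 0.0623) and PBS 0 h (0.218 and 0.303). These ratios are descriptions and were not tested.

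Nlrp3 (chromosome 11, 59541568 to 59566956, plus strand), the sensor, was low in PBS, with 28.04, 35.6, 28.6 and 23.2 CPM. At 6 h it reached 206, 151, 75.4 and 98.9 CPM and at 12 h 363, 315, 103 and 101 CPM, with all libraries above PBS. The rises were 2.21 ± 0.58 (adjusted p = 0.00725) and 2.94 ± 0.59 (adjusted p = 0.000381, edgeR), each also called within either set, with 1 library in set 2 at 12 h. Against PBS 0 h alone the 6 h difference was 2.06 (adjusted p = 0.0742). At 24 h the libraries of set 1 were at 152 and 85.1 CPM and those of set 2 at 33.1 and 32.6 CPM, within the PBS range of 23.2 to 35.6 CPM, and the pooled difference of 1.40 ± 0.56 missed the threshold (adjusted p = 0.0621).

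Casp1 (chromosome 9, 5298517 to 5307265, plus strand) went the other way. It held 192, 172, 165 and 147 CPM in PBS, 120.1, 122, 109 and 133 CPM at 12 h and 109, 105, 135 and 145 CPM at 24 h. Every library of 12 and 24 h lay below every PBS library. The falls were small, -0.48 ± 0.17 (adjusted p = 0.0360) and -0.45 ± 0.17 (adjusted p = 0.0424, edgeR). Both calls depended on single libraries, since leaving out 1 gave adjusted p values up to 0.106 and 0.145, and neither was called against PBS 24 h alone (-0.37 and -0.34, adjusted p = 0.248 and 0.255). Means in set 1 were 117 CPM at 12 h (3 libraries) and 107 CPM at 24 h, against 156 CPM at PBS 24 h. Means in set 2, where Casp1 ran higher, were 133 CPM at 12 h (1 library) and 140 CPM at 24 h, against 182 CPM at PBS 0 h. Within set 1 Casp1 was called lower at 6 h as well, at -0.48 (adjusted p = 0.0120), where set 2 gave 0.09 (adjusted p = 0.709), and at 36 h, at -0.49 (adjusted p = 0.0110), where set 2 gave -0.22 (adjusted p = 0.195). Across the 9 times Casp1 was not called.

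Casp4 (chromosome 9, 5308828 to 5336783, plus strand), the neighbour of Casp1, was called against PBS at 6 h alone. Its PBS libraries held 23.7 and 32.3 CPM at 0 h and 15.9 and 12.2 CPM at 24 h. At 6 h it stood at 63.5, 49.3, 46.7 and 39.7 CPM, all above PBS, a rise of 1.33 ± 0.20 (adjusted p = 1.09e-05, edgeR). It fell by 0.85 on the log2 scale from 6 to 12 h (SE 0.20, adjusted p = 0.00512) and by 0.84 from 12 to 24 h (SE 0.20, adjusted p = 0.00424). It then rose by 0.92 from 36 to 48 h (SE 0.20, adjusted p = 0.00106), when all 4 libraries of 48 h, at 25.2 to 30.7 CPM, lay above those of 36 h, at 11.6 to 18.3 CPM. From 48 to 72 h it fell by 0.70 (SE 0.20, adjusted p = 0.0315), to 17.01 ± 2.94 CPM (SD, n = 4). Within sets the 6 h rise was 1.97 in set 1 (adjusted p = 0.000238) and 0.63 in set 2 (adjusted p = 0.125). PBS 24 h compared with PBS 0 h gave -0.99 ± 0.28 (adjusted p = 0.364). Other times depended on the control as well. Against PBS 24 h alone Casp4 was higher at 12 h (0.98, adjusted p = 0.00723), and against PBS 0 h alone it was lower at 24 h (-0.86, adjusted p = 0.00794) and 36 h (-0.95, adjusted p = 0.00364).

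Gsdmd (chromosome 15, 75862327 to 75867408, plus strand) rose and then fell by small amounts with little spread. Its PBS libraries held 98.4, 109, 84.8 and 93.3 CPM. At 6 h it held 114, 134, 134 and 125 CPM, all above PBS, a rise of 0.40 ± 0.10 (adjusted p = 0.00458, edgeR). Against PBS 0 h alone that rise was 0.29 (adjusted p = 0.132), and within set 2 it was 0.32 (adjusted p = 0.0997). It fell by 0.50 from 6 to 12 h (SE 0.10, adjusted p = 0.00139). At 24 h, with 64.7, 65.3, 83.1 and 75.0 CPM, all libraries lay below PBS, at -0.41 ± 0.10 (adjusted p = 0.00164). At 36 h the difference was -0.34 ± 0.10 (adjusted p = 0.00890). Against PBS 24 h alone neither fall was called, at -0.31 (adjusted p = 0.0681) and -0.23 (adjusted p = 0.181). The means then climbed, from 77.9 CPM at 48 h to 102 CPM at 168 h.

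Of 90 member-by-time tests against PBS, 19 were called higher and 4 lower, against 6.47% and 4.07% of all gene-by-time tests. The members called numbered 6 of 10 at 6 h (15.1% of all genes were called), 6 at 12 h (20.6%), 5 at 24 h (26.9%) and 2 at 36 h (26.2%). At 48, 72 and 96 h 1, 2 and 1 were called (3.67%, 1.94% and 0.158% of all genes), and none at 120 and 168 h (0.123% and 0.0351%). An unadjusted p under 0.05 was found for 3 members at 120 h (1339 of 17080 genes) and 3 at 168 h (857 of 17080). At 36 h the share of members called was thus no higher than that of all genes. The median log2 fold change of the members was 1.46 at 6 h, 1.58 at 12 h and 0.81 at 24 h, and that of all genes was 0.04, 0.02 and 0.02. With Il1r2 taken as the ratio of mean CPM, the median at 12 h was 1.13. Between neighbouring times, 7 of 80 member-by-step tests were called (5.08% of all gene-by-step tests), the 4 steps of Casp4, the early steps of Gsdmd (the second, 12 to 24 h, at -0.32 ± 0.10, adjusted p = 0.0355) and the fall of Il1rn. Fitted on the compared groups alone, 2 steps were called, and the share of all genes in those fits was not counted. Same-numbered libraries of 12 and 24 h deviated together, with correlations of 0.225 to 0.518. Some libraries of different number did so too, up to 0.465 within set 1, and the parts of number and set were not tested. With the replicate number as a block Il1rn (-1.26, adjusted p = 0.0195) and Nlrp3 (-1.56, adjusted p = 0.00194) were called lower at 24 than at 12 h as well. Over all 9 APAP times 8 members changed, all but Il1b and Casp1, where 55.5% of all genes did. The same 4 PBS libraries serve as the control at every time, which ties the 9 comparisons to one another.

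Between PBS 24 h and PBS 0 h no member was called by edgeR (0.0527% of all genes were), and DESeq2 called none. In edgeR 2 members had an unadjusted p under 0.05, as did 1145 of 17080 genes. Fitted on the PBS libraries alone, Il1a (0.99, adjusted p = 0.00580) and Il1rn (-1.36, adjusted p = 0.0109) were called, with the sets and the times of PBS inseparable. How many of all genes that fit called was not counted.

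Of 24 genes listed for the receptors and adaptors that relay IL-1 and IL-18 signals, 19 were tested, and 13 of these changed over the 9 APAP times (55.5% of all genes did). At 6 h 3 were higher and none lower (15.1% of all genes were called either way), with a median of 0.02, and those were Tollip, which binds IRAK1 (0.64 ± 0.13, adjusted p = 0.000613), the adaptor gene Myd88 (0.56 ± 0.10, adjusted p = 0.000239) and the kinase gene Irak1 (0.32 ± 0.09, adjusted p = 0.0136). At 12 h 5 were higher and 2 lower (20.6% of all genes). The largest rise was that of Irak3, a kinase-like protein that restrains the pathway, at 1.11 ± 0.26 (adjusted p = 0.00163), and the accessory receptor chain gene Il1rap fell by 0.61 (SE 0.22, adjusted p = 0.0466). At 24 h 3 and at 36 h 6 were lower and none higher (26.9% and 26.2% of all genes were called), with medians of -0.19 and -0.20. By 36 h Irak3 had turned to -1.16 ± 0.26 (adjusted p = 0.000763), with Irak2 at -0.82 ± 0.17 (adjusted p = 0.000214) and Irak4 at -0.72 ± 0.13 (adjusted p = 6.65e-05). At 48 h 2 were lower, and from 72 h on none of the 19 was called, nor was any in LAM-like KCs.

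Of 26 further genes of inflammasomes and pyroptosis, 25 were tested, and these moved both ways. Counts called higher and lower were 3 and 3 at 6 h (15.1% of all genes were called), 3 and 4 at 12 h (20.6%), 3 and 6 at 24 h (26.9%), 2 and 7 at 36 h (26.2%), and 0 from 48 h on, and the median slid from -0.11 to -0.45 between 6 and 36 h. Mefv, which encodes the sensor pyrin, rose by 1.57 ± 0.33 at 6 h (adjusted p = 0.000819) and 1.41 ± 0.33 at 12 h (adjusted p = 0.00155). Ninj1, whose product ruptures the membrane of dying cells, rose by 1.04 ± 0.16 at 6 h (adjusted p = 2.39e-05) and 0.91 ± 0.16 at 12 h (adjusted p = 7.65e-05). Pycard, the gene of the adaptor ASC that links NLRP3 to caspase-1, was higher at 36 h, at 0.85 ± 0.20 (adjusted p = 0.00150). Txnip, a redox protein reported to bind NLRP3, was lower at 12, 24 and 36 h, at -1.26, -1.30 and -1.77 (adjusted p = 0.00612, 0.00341 and 0.000135). Naip5, which encodes a sensor of bacterial flagellin, was lower at 24 h at -0.72 ± 0.15 (adjusted p = 0.000339).

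Within groups, the libraries with higher header numbers had lower levels of Il1a, Il1b and Nlrp3. With all groups fitted together, 6 of 10 members differed between the sets (18.3% of all genes did). Il1a was lower in set 2 by -1.24 ± 0.20 (adjusted p = 3.26e-05, edgeR), Il1b by -1.03 ± 0.23 (adjusted p = 0.00138) and Nlrp3 by -1.13 ± 0.16 (adjusted p = 3.07e-06). The means of set 2 were lower in 11 of the 11 groups holding both sets for Il1a and Il1b, and in 10 of 11 for Nlrp3. Casp1 differed in the opposite direction, at 0.37 ± 0.04 (adjusted p = 7.49e-08), with a higher mean in 11 of 11 groups. In 10 of those every library of set 2 lay above every library of set 1. Gsdmd was also higher in set 2, at 0.14 ± 0.04 (adjusted p = 0.00818), as was Il18 at 0.17 ± 0.06 (adjusted p = 0.0475), a call lost with DESeq2, with another scaling, without the filter and without any of 34 of the 48 libraries. The Gsdmd call was lost without the filter (adjusted p = 0.186). Il1rn, at -0.40 ± 0.16, missed the threshold (adjusted p = 0.0740) but passed it with DESeq2 (adjusted p = 0.0251). One library ran against its set. Replicate 3 of 12 h carried a set 1 number, yet its 557 CPM of Il1a and 103 CPM of Nlrp3 lay with the 813 and 101 CPM of replicate 4 in set 2, and not with replicates 1 and 2. Dividing the libraries by header replicate number instead, which places that library with replicate 4, called 5 members. The share of all genes called by that split was not counted. What the header numbers stand for is not given in the sources used here.

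**Figure D3:**
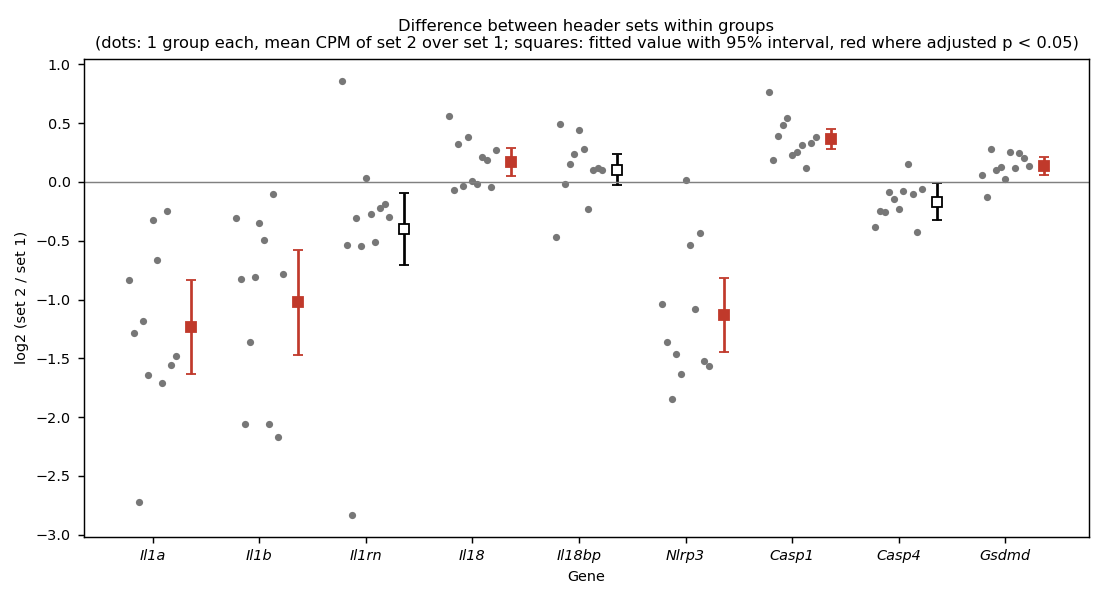
Ratio of set 2 to set 1 on the log2 scale for 9 genes, with 1 dot for the ratio of mean CPM in each of the 11 groups holding both sets and a square for the fitted difference with its 95% interval (red where the adjusted p passed). Il1a, Il1b and Nlrp3 lay below 0 in nearly every group and Casp1 above 0 in all 11.

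The deviations of the members from their group means went together for some genes and not for others. Over 48 libraries, these deviations (of log2(CPM + 1)) had a Pearson correlation of 0.93 between Il1a and Nlrp3 and of 0.89 between Il1a and Il1b. The correlation of Il1a with Casp1 was -0.58, and that of Nlrp3 with Casp1 was -0.67. Il18 and Casp1 gave 0.59, and Il18 and Il18bp -0.14. These values are descriptions, as the libraries share sets and groups.

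In the fit of all groups, LAM-like KCs differed from KCs of the same time in 1 member at 36 h and in none at 48 h. Il18 was the clearest at 36 h, with 70.6, 80.0, 77.4 and 68.6 CPM in LAM-like KCs against 121, 132, 137 and 111 CPM in KCs. The groups did not overlap, and the difference was -0.76 ± 0.15 (adjusted p = 0.00253, edgeR). It was the only member called (1.89% of all genes were), and its values of -0.77 in each set alone had adjusted p of 0.0546 and 0.0304. At 48 h LAM-like KCs held 117, 128, 151 and 145 CPM against 124, 133, 172 and 162 CPM, and the difference of -0.13 ± 0.15 was not called (adjusted p = 0.783). No member was called at 48 h (2.51% of all genes were). An unadjusted p under 0.05 was found for 2 members and for 2376 of 17080 genes. DESeq2 called 1 member, Gsdmd at -0.34 (adjusted p = 0.0231). The change of the LAM-like difference from 36 to 48 h was called for no member (0.00585% of all genes), and DESeq2 called none. For that change 1 member, Il18 at 0.63 ± 0.22, had an unadjusted p under 0.05, as did 592 of 17080 genes.

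LAM-like KCs and KCs of the same replicate number deviated together from their group means. Some libraries of the same set but different number did so too, with correlations up to 0.492 at 36 h and 0.420 at 48 h. When each same-numbered pair was compared within its own time more members passed, in a fit chosen after seeing the data. At 36 h 5 of the 9 members tested then differed (11.9% of the 14573 genes tested in that fit did). They were Il18 (-0.76 ± 0.06, adjusted p = 5.48e-06), Il1b (-0.61 ± 0.14, adjusted p = 0.0112), Gsdmd (-0.30 ± 0.08, adjusted p = 0.0301) and Il18bp (-0.27 ± 0.06, adjusted p = 0.0131), which were lower, and Il1a, which was higher (0.37 ± 0.08, adjusted p = 0.00784). At 48 h 4 of the 9 differed (14.1% of genes), all lower. Il1b was lowest at -1.21 ± 0.14 (adjusted p = 0.000103), followed by Nlrp3 (-0.49 ± 0.08, adjusted p = 0.00180), Gsdmd (-0.35 ± 0.08, adjusted p = 0.0123) and Casp1 (-0.33 ± 0.07, adjusted p = 0.00612). The change between times was called for Il18 (0.63 ± 0.08, adjusted p = 0.00753) and Nlrp3 (-0.66 ± 0.12, adjusted p = 0.0452), where 0.295% of genes were. Il1r2 was too low to be tested in that fit.

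The pairs of Il1b can be followed one by one. At 48 h the KC libraries held 982, 643, 478 and 450.4 CPM and their LAM-like counterparts 351, 342, 213 and 189 CPM. The groups did not overlap, yet without pairs the difference of -1.22 ± 0.64 was not called (adjusted p = 0.398). At 36 h KCs held 269, 587, 150.0 and 184 CPM and LAM-like KCs 195, 574, 76.5 and 94.7 CPM, lower in every pair, with ratios of 0.510 to 0.977. The ratios at 48 h ran from 0.357 to 0.533. Il1b, Il18, Casp1 and Gsdmd were lower in the LAM-like library of 8 of 8 pairs, and Il1a was higher in 7 of 8. The share of all genes that moved 1 way in so many pairs was not counted, so these counts only describe the members. Il1rn was lower in 4 and higher in 4, with differences of 0.28 ± 0.38 at 36 h and -0.09 ± 0.38 at 48 h. Summed markers of some cells differed as well. Those of monocytes, of which Plac8 was the highest in KCs at 36 h, ran from 88.8 to 160 CPM against 371 to 458 CPM in KCs at 36 h and from 117 to 198 against 482 to 547 at 48 h. Those of KCs ran from 22245 to 24212 CPM against 35212 to 36881 CPM at 36 h. Those of neutrophils overlapped, at 37.4 to 52.4 against 40.2 to 65.9 CPM at 36 h and 66.7 to 90.6 against 58.8 to 100.2 CPM at 48 h. The part of any of these in the differences was not tested.

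**Figure D4:**
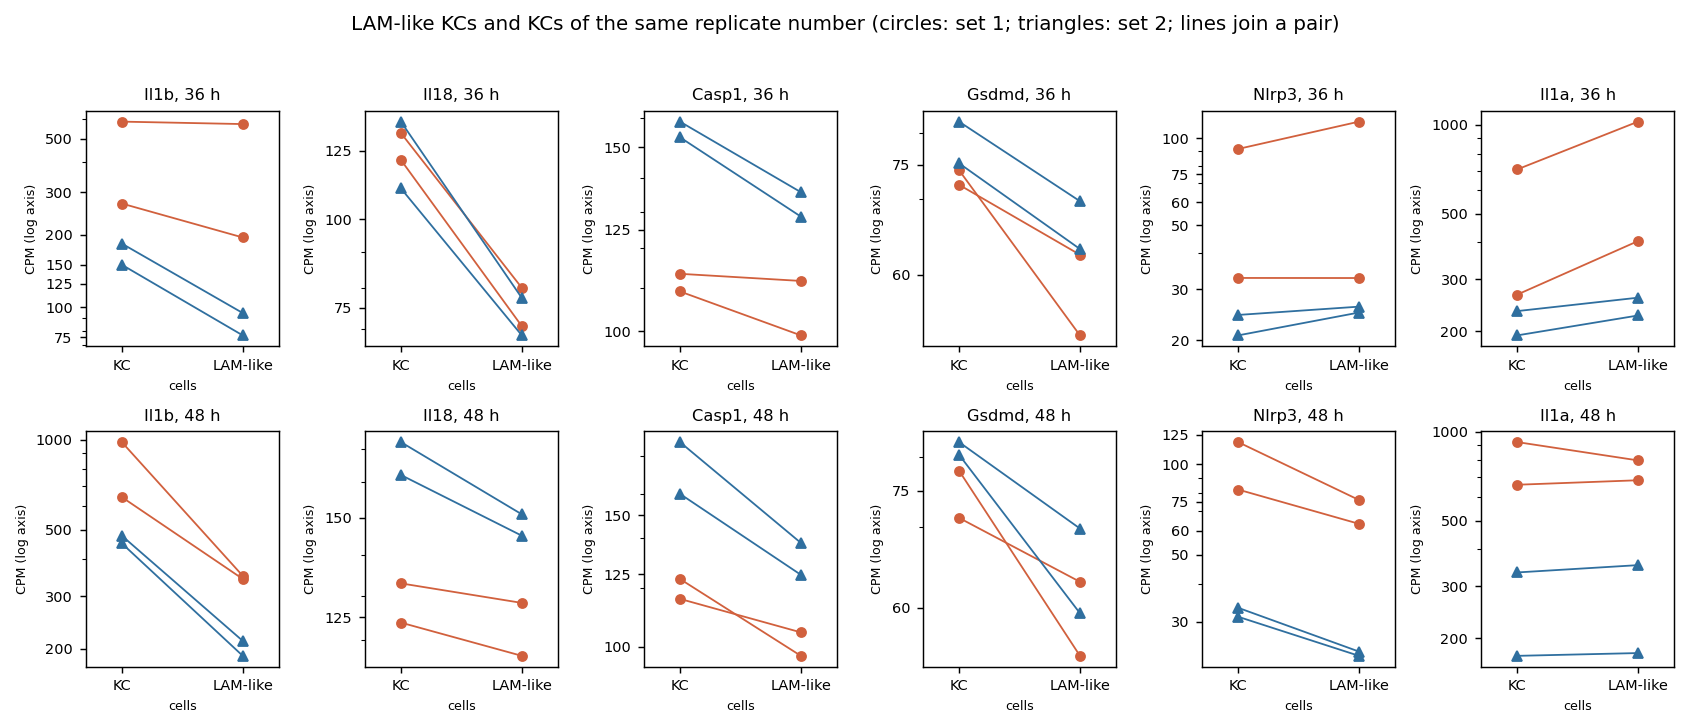
Level of 6 genes in KCs and LAM-like KCs at 36 h (top) and 48 h (bottom), in CPM on log axes, with a line for each of 4 pairs of the same replicate number (circles set 1, triangles set 2). Il1b, Il18, Casp1 and Gsdmd fell along all 8 lines, while Il1a rose along 7 of 8 (the share of all genes doing so was not counted).

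Per kilobase of exon, the order of the members changed with time. At PBS 0 h Il18bp led at 267 ± 19.3 CPM per kilobase (SD, n = 2), followed by Il1b at 140 ± 10.6 and Casp1 at 122 ± 9.13, which lay close together, while Nlrp3 (7.84 ± 1.31) and Casp4 (7.54 ± 1.63) did not differ beyond their spread. At 12 h after APAP Il1b, at 886 ± 467 CPM per kilobase (SD, n = 4), and Il1a, at 855 ± 590, came first and did not differ beyond their spread. Il18bp followed at 240 ± 58.8, then Il18 at 123.0 ± 10.5 and Il1rn at 118 ± 25.6, which overlapped. Casp1, at 80.8 ± 6.51, and Nlrp3, at 54.4 ± 34.1, came next, and Il1r2 was last in every group shown here. Exon lengths are those of all transcripts merged, which understates genes with long rare exons.

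Over 48 libraries, genes whose log2(CPM + 1) was most like that of Il1b were Pde4b (Pearson r = 0.90), Pmaip1, Sowahc, Il6 and Klf2 (r = 0.88). For Il1rn they were Stap1 (r = 0.90), Slc15a3, Ptpn12, Procr and Metrnl (r = 0.87). For Casp1 they were Nmi (r = 0.84), Klrk1, Nck1, Cd302 and Mettl23 (r = 0.81). Il18 had no close match, the nearest being Glipr1 at r = 0.60, then Plpbp, Dctn2, Serp1 and Yipf5 (r = 0.53). The 8259 genes searched had a mean of at least 10 CPM and were not predicted genes, and the libraries share groups and sets, so these values only rank genes.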

How the data were processed

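RNA-seq of 48 libraries of mouse Kupffer cells and LAM-like KCs was used. The deposited values are raw read counts per gene, one file per library. Per the submitters' processing notes, reads were handled with featureCounts 2.0.0, HISAT2 2.2.0, FastQC 0.11.9 and SAMtools 1.10 on the build mm10, while the strand setting of the counting is not given in the sources used here. Without it, reads of Il1a, Il1b and Il18bp cannot be told apart from those of genes that overlap their exons, by 11.2%, 1.31% and 2.64% of exon bases. No 2 files were identical.

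Genes with low counts were filtered with edgeR 4.0.16 (R 4.3.3, limma 3.58.1), which left 17080 genes with at least 99.9% of the counts of every library. All 13 groups were fitted together with TMM scaling and the quasi-likelihood test, and p-values were adjusted by Benjamini-Hochberg over all genes tested, with a threshold of 0.05. KCs at each time were compared with the mean of both PBS groups. CPM values use the totals of the libraries multiplied by their TMM factors. Unscaled totals ran from 15885336 to 26058698 counts, so the lowest genes, Il1r2 above all, are the least precise. The floor of 3 counts covers counting error only. The test was also run on simulated counts with known changes.

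The members and the gene lists were chosen with earlier results of these data known. All 10 members are named in every comparison. Of each pathway list, up to 3 called genes with the largest change may be named per comparison, if the higher group averages 10 CPM or more, and the 5 most similar genes by correlation are named for Il1b, Il1rn, Il18 and Casp1.

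Replicate numbers were checked for pairing by the correlation of deviations from group means over genes. Same-numbered LAM-like and KC libraries gave 0.454 to 0.657 at 36 h and 0.529 to 0.662 at 48 h. Those of different number gave -0.566 to 0.492 at 36 h and -0.576 to 0.420 at 48 h, the highest within a set. Each LAM-like library correlated most with the KC library of its own number. The numbers were therefore taken to pair these libraries, on the evidence of the data and not of the labels. What part of the correlations belongs to the set was not tested. Between neighbouring times of KCs all 4 same-numbered pairs were over 0.1 for 24 and 12 h, 48 and 36 h, and 120 and 96 h, and 2 of 4 for each of the other 5 steps. Of the 12 pairs of different number, 4 were over 0.1 for 24 and 12 h, 3 for 48 and 36 h, and 3 for 120 and 96 h. The label and header replicate numbers differed in 2 libraries, both PBS 0 h. Alternatives were DESeq2 1.42.0, RLE scaling, no filter, each PBS group alone, the compared groups alone, the replicate block, the set as a term, each set alone and leaving out each library. The pairs within each time and the split by header replicate number were added after seeing the data. Sequences came from RefSeq (GRCm38.p6) and gene positions and exon lengths from GENCODE M21.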

Additional observations from a re-analysis of the deposited data

Results flagged for a closer look

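In groups of 4 libraries, a library was singled out where its gap to the next made up most of the range of its group. This was so in 8 of 110 combinations of member and group, and chance flags about 1 in 20 groups. Replicate 2 of 36 h accounted for 5 of the 8. In KCs of that time it held 706 CPM of Il1a, with the next library at 266 CPM, and 91.8 CPM of Nlrp3, with the next at 32.9 CPM. The LAM-like library of the same number held 114 CPM of Nlrp3 (next 32.8), 22.4 CPM of Casp4 (next 13.6) and 0.343 CPM of Il1r2 (next 0.0440). Replicate 1 of 6 h held 17.6 CPM of Il1r2, with the next library at 3.07 CPM. Il18bp stood at 887 CPM in KC replicate 3 of 36 h (next 739) and at 819 CPM in LAM-like replicate 4 of 48 h (next 693).

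The LAM-like difference changed between 36 and 48 h for 2 members in the paired fit, by the test of the change itself. It moved by 0.63 for Il18, from -0.76 to -0.13, and by -0.66 for Nlrp3, from 0.16 to -0.49. The Nlrp3 difference at 36 h was itself not called (adjusted p = 0.271, edgeR). In the paired fit 0.295% of genes were called for this change, and the fit of all groups called no member.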

How the results depend on the processing

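Of 37 called member results, 13 kept the call in every alternative and 27 whichever library was left out. Of 4179 alternative values, none changed sign where it or the main value was called. Sign changes of values called in neither were not counted. The share of all genes called was counted for none of these alternatives but the pairs within each time, so the counts describe members only. The 19 higher calls against PBS became 29 with the replicate block and 12 in set 2 alone, and ran from 14 to 20 when 1 library was left out. The 4 lower calls became 9 with the replicate block, 7 with the set as a term and 0 against PBS 24 h alone, and ran from 2 to 5 with 1 library left out, the 2 being without PBS 24 h replicate 1. Each PBS group holds 2 libraries, too few pairs with KCs for the pairing check, so against PBS the samples share only a number. The block used label numbers. It thus joined PBS 0 h replicates 1 and 2, of set 2 and header replicates 3 and 4, with APAP replicates 1 and 2, of set 1. What part of the added calls comes from this mismatch was not tested, and counts with header numbers as the block are not given here. Members changing over the 9 times numbered 8 to 9 with 1 library left out. The 7 called steps became 11 with DESeq2, 4 in set 2 alone and 2 with the compared groups alone (6 to 9 with 1 library left out), and 9 with the replicate block.

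For LAM-like KCs at 36 h, the 1 call became 0 in set 1 alone and 5 with the replicate block within each time (1 with any library left out). At 48 h the 0 calls became 1 with DESeq2, RLE scaling, the common replicate block or the set as a term, and 4 with the replicate block within each time (0 to 1 with 1 library left out; 1 without KC replicate 1 or LAM-like replicate 3). The change between times went from 0 to 2 with that block (0 with any library left out). Between PBS groups 0 became 2 with the PBS libraries alone (0 with any library left out), and the 6 set differences ran from 5 to 6. The causes were not tested. Depth limits Il1r2 above all.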
